A study of Homo sapiens with 12 samples.

Results

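MYC and its MAX-network partners were examined in RNA-seq of LNCaP cells, an androgen-responsive line established from a metastatic prostate carcinoma. The set held 9 genes taken by name from the 34643 genes of the deposited table: MYC, MAX, MXI1, MXD1, MXD3, MXD4, MNT, MGA and MLX. All 9 were among the 15419 genes that passed the filter on low counts. Cells had been transduced with a pLKO.1-puro lentivirus carrying either a scrambled short hairpin RNA (sh_scramble) or one against TMEFF2 (sh_TMEFF2), an androgen-regulated transmembrane protein, and selected with puromycin, and were used about 2.5 weeks after transduction. After 24 h in hormone-depleted medium, each line received either 10 nM dihydrotestosterone (DHT, an androgen) or ethanol vehicle for 24 h. Each line was thus sequenced 3 times with the hormone (+DHT) and 3 times with vehicle (-DHT). The 12 libraries held 19450866 to 22612046 estimated counts, with a median of 21194622. The 3 libraries of a group were separate treatments and extractions drawn from 2 transductions, so the spread between them is that of cultures of the same line, and which hairpin against TMEFF2 was sequenced is not named in the labels.

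MYC is a basic helix-loop-helix leucine zipper transcription factor that binds DNA only as a heterodimer with MAX, mostly at the E-box sequence CACGTG, where it recruits histone acetyltransferases and drives ribosome synthesis, metabolism and cell growth. MAX also pairs with the MXD proteins, MXI1, MNT and MGA, and these dimers occupy the same E-boxes but bring in corepressors such as SIN3. MLX is a MAX-like factor that pairs with MXD1, MXD4, MNT and the glucose-sensing Mondo proteins MLXIP and MLXIPL. The output of the network therefore depends on the relative supply of MYC and of the proteins that compete for MAX. In prostate cancer MYC is frequently overexpressed, and how it relates to androgen signalling has long been studied.

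Position and promoter are given for 8 members, with genes placed on GRCh38 (GENCODE v44). MAX lies on the minus strand of chr14:65006174-65102695, MXI1 on the plus strand of chr10:110207605-110287365 and MXD1 on the plus strand of chr2:69897688-69942945. MXD3 occupies the minus strand of chr5:177301461-177312757, MXD4 the minus strand of chr4:2247432-2262109 and MNT the minus strand of chr17:2384073-2401104. MGA is on the plus strand of chr15:41621134-41773081 and MLX on the plus strand of chr17:42567072-42573239. MXD1 shares its strand with SNRNP27 and MXD3 with RAB24, while MAX, MXD3 and MLX each overlap a coding gene on the opposite strand (FNTB, PRELID1 and PSMC3IP). Reads from such overlaps are divided between genes by estimation.

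The E-box CACGTG, which reads the same on both strands, was searched in the 250 bases before each RefSeq transcription start (GRCh38.p14). It was found for 3 of the 8 members, in 3 of their 13 start windows, against 6.34% of 35116 windows and 7.73% of 27305 genes overall. The 3 windows are printed 5′ to 3′ on the gene's strand, because these members hold the letters of the network's E-box and each passed the test in at least 1 comparison given later, and the E-box is in capitals. It began 238 bases before the start of MXD4 (chr4:2262110-2262359, minus strand), 193 before that of MNT (chr17:2401061-2401310, minus strand) and 50 before that of MLX (chr17:42566850-42567099, plus strand).
MXD4: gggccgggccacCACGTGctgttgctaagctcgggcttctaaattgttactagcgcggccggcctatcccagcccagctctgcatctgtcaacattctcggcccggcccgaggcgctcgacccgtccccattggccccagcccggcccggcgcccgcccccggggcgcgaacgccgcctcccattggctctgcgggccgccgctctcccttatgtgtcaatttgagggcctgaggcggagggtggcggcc
MNT: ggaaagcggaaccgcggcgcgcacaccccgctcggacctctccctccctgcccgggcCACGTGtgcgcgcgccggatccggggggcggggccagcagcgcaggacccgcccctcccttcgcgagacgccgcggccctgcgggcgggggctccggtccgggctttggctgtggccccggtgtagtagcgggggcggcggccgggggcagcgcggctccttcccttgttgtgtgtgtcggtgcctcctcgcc
MLX: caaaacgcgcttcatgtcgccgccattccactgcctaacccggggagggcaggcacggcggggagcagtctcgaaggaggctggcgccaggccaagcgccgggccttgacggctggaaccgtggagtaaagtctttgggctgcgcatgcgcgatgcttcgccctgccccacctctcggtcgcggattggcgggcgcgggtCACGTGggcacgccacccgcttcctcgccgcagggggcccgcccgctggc
A match of letters does not show that a factor binds there.

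The knockdown was checked first. TMEFF2 was measured at 77.8, 73.8 and 103.0 CPM (counts scaled to library size and by the trimmed mean of M-values, TMM) in the sh_scramble -DHT libraries and at 68.6, 39.3 and 81.7 in the sh_TMEFF2 -DHT libraries. With DHT it was 173.0, 117.0 and 169.0 CPM in sh_scramble and 142.0, 90.1 and 114.0 in sh_TMEFF2. The lines overlapped at both hormone states, and the log2 difference, -0.43 without and -0.41 with DHT, did not pass the test (edgeR quasi-likelihood, adjusted p = 0.5 and 0.3). TMEFF2 was lower in the sh_TMEFF2 library in 6 of 6 comparisons of libraries with the same number, although the numbers were not taken as pairs, and the line names are used as labels. The paper reported by Western blot that some of its hairpins lowered TMEFF2 protein in LNCaP cells. RNA-seq does not measure protein, so the values above bear on mRNA only.

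Marker genes were used to check the cells. The 9 luminal prostate markers summed to 6730 to 6950 CPM in sh_scramble -DHT, 14000 to 15600 in sh_scramble +DHT, 4330 to 4930 in sh_TMEFF2 -DHT and 5200 to 6610 in sh_TMEFF2 +DHT, led by FOLH1 or KLK3 (prostate-specific antigen). They did not move as 1, since 6 rose and 3 fell with DHT in sh_scramble (edgeR, against 14.4% and 12.6% of all genes). FOLH1 was among those that fell, from 2570 to 1390 CPM. Without DHT 2 of the 9 were lower in sh_TMEFF2 than in sh_scramble and 0 higher (22.2% passed, against 1.12% of all genes). The 12 markers of basal, stromal, endothelial, immune and neuroendocrine cells summed to between 29.1 and 50.1 CPM in any library, led by COL1A1 in all libraries but 1, in which ACTA2 led. Among these, KRT5 had no count in any library, and CD3E and CHGA had at most 3. Of these 12 markers 6 were tested, and with DHT in sh_scramble KRT14 (15 to 29 counts against 0 or 1) and ACTA2 (8.53 against 2.64 CPM) rose while COL1A1 (12.3 against 18.9 CPM) and PTPRC fell. With DHT in sh_TMEFF2 only COL1A1 passed by edgeR, and it fell (log2 -0.68, adjusted p = 0.0044). With DHT, KRT14 was lower in sh_TMEFF2 than in sh_scramble (log2 -2.61, edgeR adjusted p = 0.025), at 0 to 9 counts. PTPRC was higher there (0.65, adjusted p = 0.033). Without DHT none passed between the lines by edgeR, and DESeq2 called ACTA2 higher in sh_TMEFF2. Both sets of markers moved with the groups, and their part in the results that follow was not tested. In bulk RNA fewer cells of a kind and less RNA per cell cannot be told apart.

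Levels of different members can be set side by side only per length. Divided by the longest coding transcript, MYC averaged 56.6 CPM per kb over the 12 libraries, MLX 45.6, MXD4 34.6, MXI1 18.8 and MAX 18.1. MNT followed at 10.2 CPM per kb, MXD3 at 6.34, MGA at 5.33 and MXD1 at 2.76. MYC had the highest and MXD1 the lowest level per length when the longest, the median or the shortest coding transcript was used for all members alike. The order of the others changed. Lengths were not varied gene by gene, and MYC at its longest transcript (56.6) lay below MAX at its median (63.8 CPM per kb). The ranks therefore hold only under a common choice of length. MYCN, the paralog of MYC that marks neuroendocrine prostate tumours, had 0 counts in all 12 libraries.

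MYC mRNA had the same mean with and without androgen in control cells. It was measured at 225, 205 and 229 CPM in sh_scramble -DHT and at 234, 192 and 234 CPM in sh_scramble +DHT. The same gene gave 187, 167 and 201 CPM in sh_TMEFF2 -DHT and 211, 221 and 220 CPM in sh_TMEFF2 +DHT. The sh_TMEFF2 -DHT libraries held 3 of the 4 lowest values, the remaining one being a sh_scramble +DHT library, and the other 3 groups overlapped. In order of group mean the levels were 220 ± 12.9 CPM (SD, n = 3) in sh_scramble -DHT, 220 ± 24.4 in sh_scramble +DHT, 217 ± 5.32 in sh_TMEFF2 +DHT and 185 ± 16.7 in sh_TMEFF2 -DHT. Each value rested on 3784 to 4967 counts.

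None of the MYC differences passed the edgeR test across all genes on all 12 libraries without a replicate block. The log2 change with DHT in sh_scramble was 0.00 with a 95% interval of -0.20 to 0.20 (edgeR, adjusted p = 0.99), so that a change within those bounds in either direction was not resolved. In sh_TMEFF2 it was 0.23 ± 0.087 (SE), with an unadjusted p of 0.02 and an adjusted p of 0.1 by edgeR. By DESeq2 that adjusted p was 0.046. The rise passed in 3 of 21 alternative settings, among them the edgeR fit with the replicate number as a block (adjusted p = 0.03). Without DHT the sh_TMEFF2 line was lower by 0.25 on the log2 scale with an adjusted p of 0.22 by edgeR, although its 3 libraries lay below all 3 of sh_scramble, and with DHT the log2 difference was -0.02 (adjusted p = 0.92). The response to DHT differed between the lines by 0.23 with a 95% interval of -0.05 to 0.51 (edgeR interaction, adjusted p = 0.37).

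**Figure D1:**
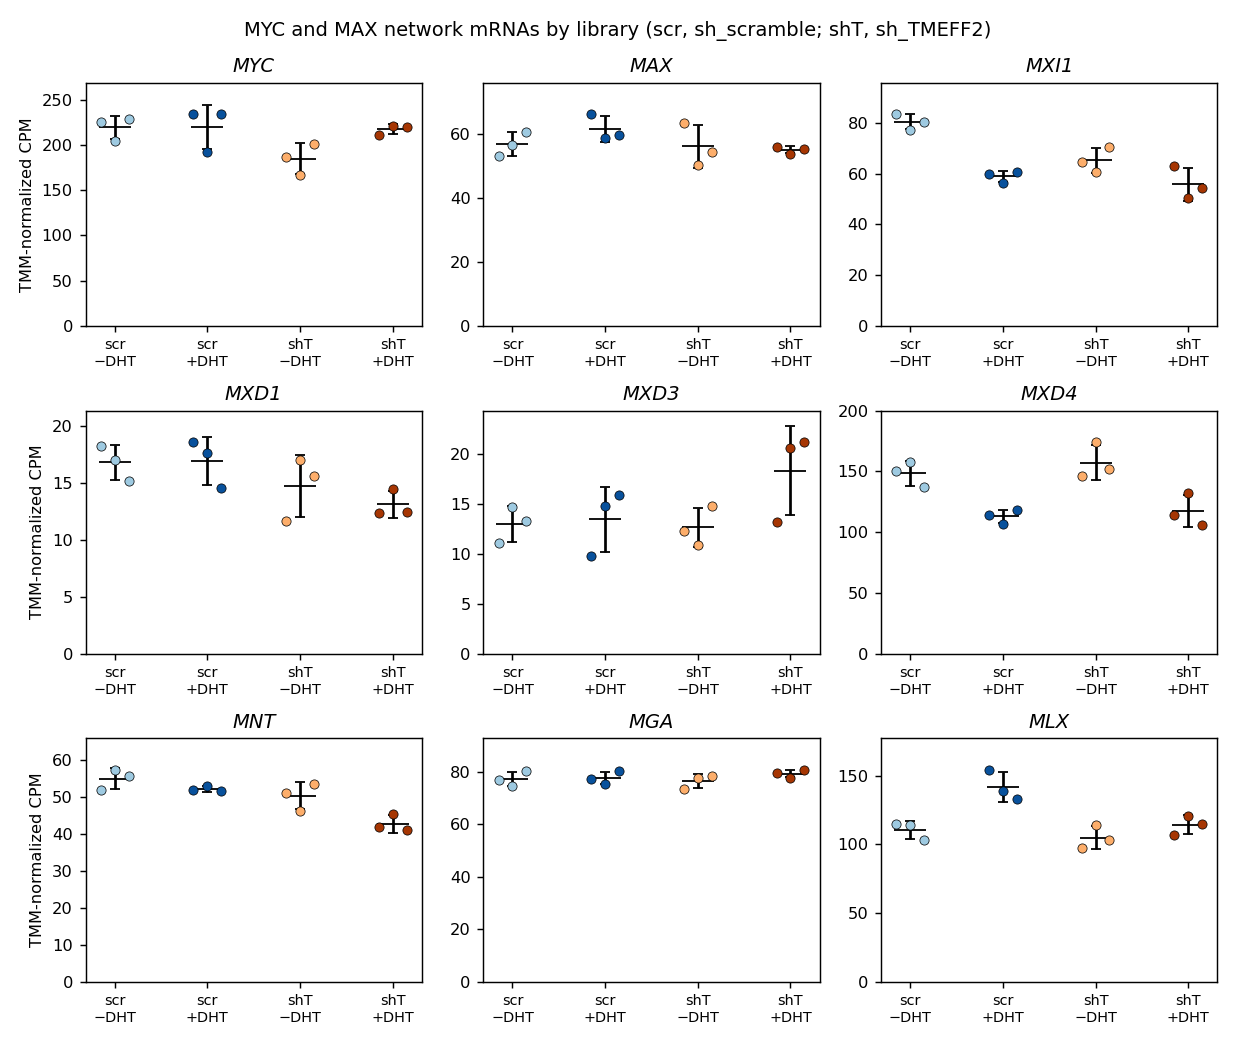
TMM-normalized CPM (linear axes from 0) of the 9 network genes in the 12 libraries, with points for libraries, long bars for group means and error bars for SD (n = 3). MXI1 and MXD4 were lower and MLX higher in every sh_scramble +DHT library than in any sh_scramble -DHT library, whereas the MYC values of those groups overlapped.

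MAX, the obligate partner, passed the test in no comparison. Its means were 56.6 ± 3.69 CPM in sh_scramble -DHT, 61.3 ± 4.06 in sh_scramble +DHT, 56 ± 6.74 in sh_TMEFF2 -DHT and 54.9 ± 1.11 in sh_TMEFF2 +DHT (SD, n = 3). The log2 changes ran from -0.16 to 0.11 over the 4 comparisons. The -0.16 belonged to the lines with DHT, where the 3 sh_TMEFF2 libraries (53.7 to 55.8 CPM) lay below the 3 of sh_scramble (58.5 to 66 CPM) with an adjusted p of 0.26 by edgeR.

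A pair of MYC antagonists fell with DHT in control cells. In sh_scramble, 3 of the 9 members passed the test (33.3%), against 27% of all genes tested. MXI1 and MXD4 fell and MLX rose, that is 2 members lower against 12.6% of all genes and 1 higher against 14.4%. With an additional limit of 1.5-fold no member was called here or in any other comparison of 2 groups, whereas 11.9% of all genes met it for DHT in sh_scramble, 4.88% for DHT in sh_TMEFF2, 0.571% between the lines without DHT and 6.77% between them with DHT. The libraries of the groups did not overlap for 3, 3, 2 and 4 of the 9 members in those comparisons, against 41.8%, 31.3%, 18.5% and 32.5% of all genes. With 9 genes the share of members is close to that of all genes, and the median log2 change of the members was 0.01 against -0.01 for all genes.

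MXI1, a MAX partner that represses MYC targets through SIN3, was measured at 83.4, 77.4 and 80.5 CPM without DHT and at 59.9, 56.3 and 60.5 with DHT in sh_scramble. The groups did not overlap, and the level with DHT was 1.37-fold lower (log2 -0.45 ± 0.086 SE, edgeR adjusted p = 0.0019). In sh_TMEFF2 the values were 64.6, 60.5 and 70.6 CPM without and 63, 50.4 and 54.2 with DHT. Here the groups overlapped and the log2 change of -0.22 did not pass (edgeR, adjusted p = 0.11), although it passed in 2 of 21 alternative settings, among them the fit with the replicate number as a block (adjusted p = 0.049). The sh_TMEFF2 -DHT libraries already lay below all sh_scramble -DHT libraries, with a log2 difference of -0.30 that had an adjusted p of 0.12 by edgeR and 0.029 by DESeq2. The response to DHT differed between the lines by 0.23 (95% interval -0.05 to 0.51), which did not pass the edgeR test (adjusted p = 0.37).

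MXD4, a further MAX-binding repressor, behaved alike in both lines. In sh_scramble it was 150, 158 and 137 CPM without DHT and 114, 107 and 118 with DHT. In sh_TMEFF2 it was 146, 174 and 152 CPM without and 114, 132 and 106 with DHT. In neither line did the groups overlap. The level fell 1.31-fold in sh_scramble (log2 -0.39 ± 0.092, edgeR adjusted p = 0.0079) and 1.34-fold in sh_TMEFF2 (log2 -0.43 ± 0.092, edgeR adjusted p = 0.01). The difference between those responses was -0.04 with a 95% interval of -0.34 to 0.26. In sh_TMEFF2 the call rested on 2 libraries, with an adjusted p of 0.059 without +DHT library 3 and of 0.05, just past the threshold, without -DHT library 2.

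MLX was the only member that rose with DHT in sh_scramble by this test. It was measured at 115, 114 and 103 CPM without DHT and at 154, 139 and 133 with DHT, with no overlap. The rise was 1.28-fold (log2 0.36 ± 0.081, edgeR adjusted p = 0.0057). In sh_TMEFF2 the values were 97.4, 114 and 103 CPM without and 107, 121 and 115 with DHT, which overlapped (log2 0.13, edgeR adjusted p = 0.35). With DHT, MLX was 1.24-fold lower in sh_TMEFF2 than in sh_scramble (log2 -0.31 ± 0.081, edgeR adjusted p = 0.021), and the groups did not overlap. The difference between the DHT responses, -0.23 (95% interval -0.50 to 0.03), did not pass. The call between the lines was lost when any of the +DHT libraries 1 or 2 of sh_scramble or 1 or 3 of sh_TMEFF2 was left out, with adjusted p-values of 0.051 to 0.1.

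In sh_TMEFF2, 2 of 9 members passed the test with DHT (22.2%), both lower, against 13.1% of all genes in either direction and 5.21% lower. MXD4 was described above. MNT, a MAX partner expressed in most cells that holds MYC targets in check, was 51.1, 46.3 and 53.5 CPM without DHT and 41.8, 45.4 and 40.9 with DHT in sh_TMEFF2. The groups were separated by less than 1 CPM at their nearest, and the level fell 1.18-fold (log2 -0.24 ± 0.072, edgeR adjusted p = 0.048). In sh_scramble it was 51.9, 57.2 and 55.7 CPM without and 51.8, 53 and 51.6 with DHT, which overlapped (log2 -0.07, edgeR adjusted p = 0.48). The fall in sh_TMEFF2 was close to the threshold and was lost under 16 of 21 alternative settings, among them 11 of the 12 that left out 1 library.

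Between the lines without DHT, 0 of 9 members passed by edgeR, against 1.12% of all genes. At an unadjusted p under 0.05 there were 2, MYC and MXI1, both lower in sh_TMEFF2, and DESeq2 called 1, MXI1. With DHT, 2 of 9 members passed (22.2%), against 16% of all genes, and both were lower in sh_TMEFF2, against 9.09%. They were MLX, given above, and MNT, which was 1.22-fold lower (log2 -0.29 ± 0.072, edgeR adjusted p = 0.016) with no overlap between the groups. The MNT call was lost in 6 of 21 alternative settings, which included leaving out any of the same 4 libraries as for MLX, with adjusted p-values of 0.054 to 0.077. No member's response to DHT differed between the lines by edgeR, against 4.94% of all genes. None had an unadjusted p under 0.05 in that test, and neither DESeq2 nor limma-voom called any.

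**Figure D2:**
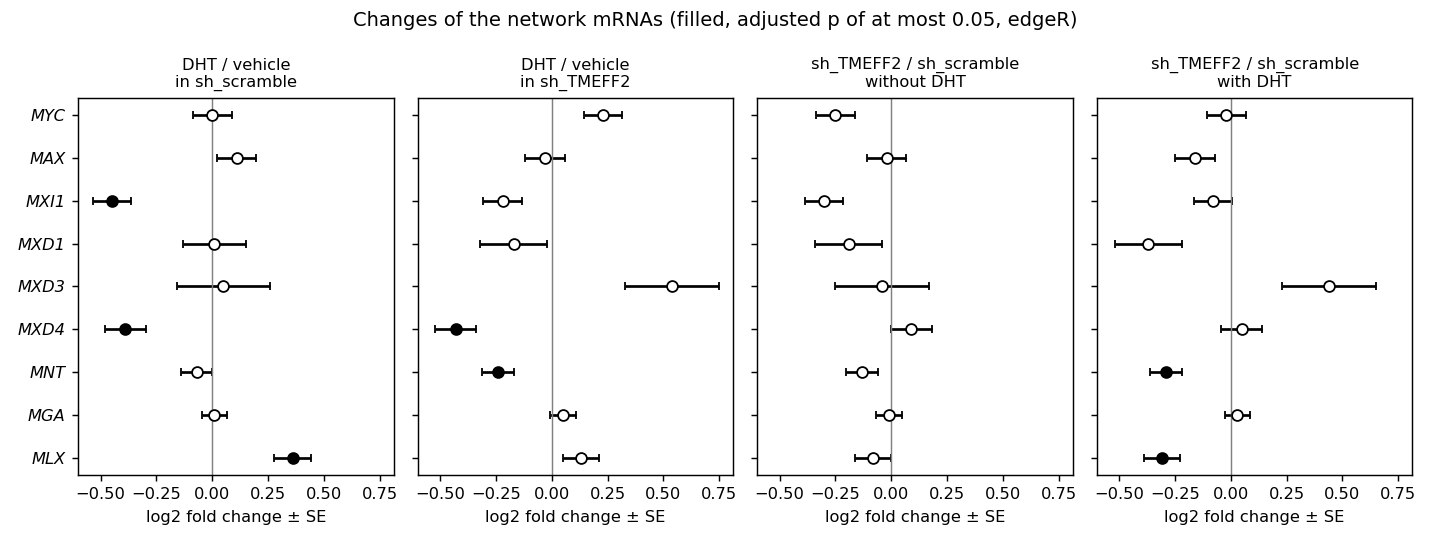
Fitted log2 fold changes (x axis) ± SE of the 9 members in 4 comparisons, with filled points for an adjusted p of at most 0.05 by edgeR over all genes. MXI1, MXD4 and MLX are filled for DHT in sh_scramble, MXD4 and MNT for DHT in sh_TMEFF2, none between the lines without DHT, and MNT and MLX between the lines with DHT.

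The remaining members passed in no comparison by the edgeR test as described, and MXD3 passed in 2 of 21 alternative settings with DHT in sh_TMEFF2. MGA, a large MAX partner that also scaffolds a Polycomb complex, ranged from 73.4 to 80.5 CPM over all 12 libraries, with log2 changes between -0.01 and 0.05. MXD1, which is induced on differentiation, ranged from 11.7 to 18.6 CPM on 244 to 404 counts, and with DHT its 3 sh_TMEFF2 libraries (12.4 to 14.5 CPM) lay below the 3 of sh_scramble (14.6 to 18.6 CPM) with an adjusted p of 0.11 by edgeR. MXD3, linked to proliferating cells, ranged from 9.79 to 21.2 CPM on 194 to 476 counts. Its log2 change of 0.54 ± 0.21 with DHT in sh_TMEFF2 was larger than any other member's and had an adjusted p of 0.12 by edgeR. There 2 of the 3 +DHT libraries, at 20.6 and 21.2 CPM, lay above all 3 -DHT libraries and the third, at 13.2, among them.

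Within a library, MYC can be set against each competitor without scaling between libraries. The log2 CPM of MYC minus that of MXI1 averaged 1.45 in sh_scramble -DHT and 1.9 in sh_scramble +DHT, and 1.5 and 1.96 in the sh_TMEFF2 groups. The values of the +DHT libraries of each line lay above those of its -DHT libraries. For MXD4 the same difference went from 0.57 to 0.96 in sh_scramble and from 0.24 to 0.9 in sh_TMEFF2, again without overlap. For MNT it was 2 and 2.07 in sh_scramble, which overlapped, and 1.88 and 2.34 in sh_TMEFF2, which did not. For MAX it was 1.95 and 1.84 in sh_scramble, which overlapped, and 1.73 and 1.98 in sh_TMEFF2, which did not. For MXD3 the group mean went the other way in sh_TMEFF2, from 3.87 to 3.59, with 4.07 and 4.04 in sh_scramble. For MXD1 it was 3.7 and 3.69 in sh_scramble and 3.65 and 4.04 in sh_TMEFF2. The -DHT and +DHT libraries overlapped in both lines for MXD3 and for MXD1. Only the change between groups can be read from these values, since the genes differ in length, and each also holds the change of MYC itself.

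**Figure D3:**
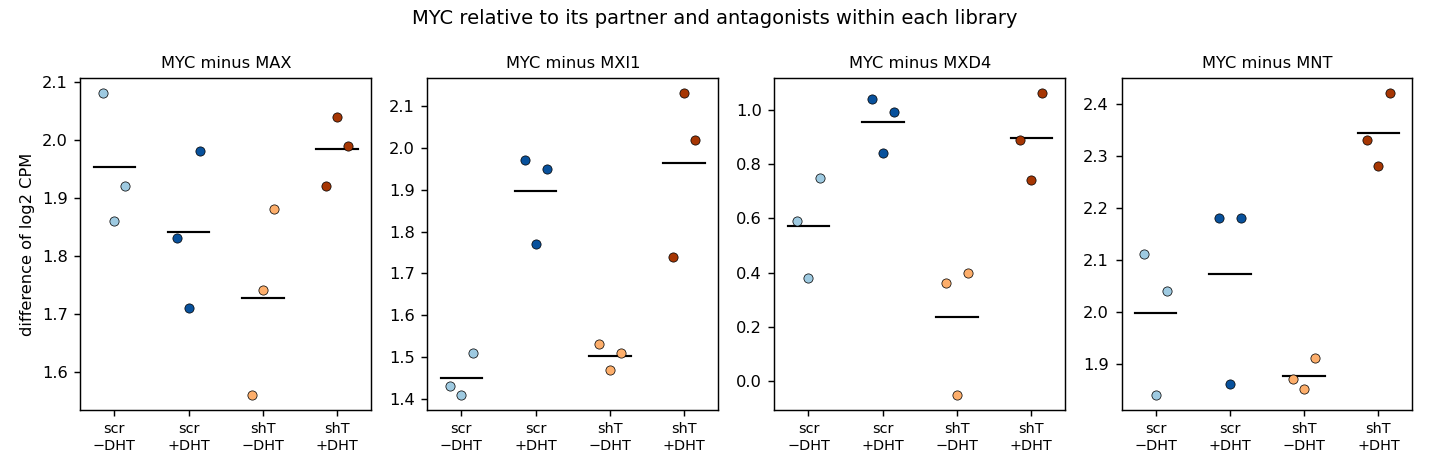
Difference of log2 CPM between MYC and MAX, MXI1, MXD4 or MNT in each of the 12 libraries, with lines at group means (axes do not start at 0 and differ between panels). For MXI1 and MXD4 the +DHT libraries of each line lie above the -DHT libraries, with group means of 1.45 and 1.9 for MXI1 and 0.57 and 0.96 for MXD4 in sh_scramble.

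Over the 12 libraries the members did not move as a block. Pearson correlations of log2 CPM between members ran from -0.52 for MXD4 with MLX to 0.63 for MXI1 with MNT, and MYC with MAX gave 0.37. Among 11155 genes averaging at least 5 CPM, the profiles most like that of MYC were WNT10B (r = 0.917), TCF20 (0.897) and MMP7 (0.871). Those most like MXD4 were JUP (0.976), GRN (0.966) and ETFB (0.957), and those most like MXI1 were FAM229B (0.965), IGIP (0.954) and BEX2 (0.938). MLX was closest to ATP6V0B (0.978), COQ8A (0.971) and PLA2G4F (0.962), and MNT to ADCK1 (0.904), PDGFA (0.885) and NECTIN2 (0.874). For MAX the leading values were lower, at 0.829 for BOD1 and 0.826 for KIAA0556. The 12 points fall into the same 4 groups and are not independent, so these values describe likeness only.

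The wider network was read from lists of genes with known roles. These lists were chosen with earlier results of these data known, so their shares beside those of all genes are descriptive. Counts at an unadjusted p under 0.05, for members and lists, have no share over all genes beside them and are not read as results. Of 6 further network genes, 5 were tested, and 3 fell with DHT in sh_scramble (60%, against 12.6% of all genes). MLXIPL, the glucose-sensing partner of MLX, fell from 6.03 ± 0.516 to 3.07 ± 0.41 CPM (log2 -0.97, edgeR adjusted p = 0.0046). Its paralog MLXIP fell from 138 ± 5.25 to 110 ± 6 CPM (log2 -0.33, edgeR adjusted p = 0.023). TXNIP, a well-known target of both that limits glucose uptake, fell from 556 ± 131 to 349 ± 102 CPM (log2 -0.67, edgeR adjusted p = 0.047), but its groups overlapped, DESeq2 did not call it and its call was lost in 10 of 21 settings. The MLXIP call was lost in 4 of 21, among them those without sh_scramble -DHT library 2 or 3 or +DHT library 2. ARRDC4, a related target, was at 58.4 and 46 CPM and MYCL at 6.42 and 8.14, and neither passed. In sh_TMEFF2 none of the 5 passed by edgeR, DESeq2 or limma-voom, with 1 at an unadjusted p under 0.05, and all 5 fitted values were negative. Of 21 alternative settings 1, another edgeR fit, called TXNIP lower there (adjusted p = 0.0027), and no fit without 1 library did. None passed by edgeR between the lines without DHT (0 at an unadjusted p under 0.05), between the lines with DHT (2) or for the difference of responses (0), and DESeq2 called MLXIP higher in sh_TMEFF2 with DHT.

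Cofactors that MYC recruits moved in both directions. Of 17, 2 rose (11.8%, against 14.4% of all genes) and 3 fell (17.6%, against 12.6%) with DHT in sh_scramble, shares near those of all genes. The histone acetyltransferase CREBBP fell from 79.7 to 54 CPM (log2 -0.56, edgeR adjusted p = 0.00083), BPTF (-0.26) and KAT5 (-0.23) fell with it, and MYCBP (0.40) and the ATPase RUVBL1 (0.28) rose on the log2 scale. In sh_TMEFF2 3 rose (17.6%, against 7.84%) and 0 fell, namely WDR5 (0.30), RUVBL1 (0.29) and ACTL6A (0.27). DESeq2 and limma-voom each also called CREBBP lower there. None passed between the lines or for the difference of responses by edgeR, DESeq2 or limma-voom, with 1, 0 and 0 at an unadjusted p under 0.05 without DHT, with DHT and for the difference.

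Regulators of MYC protein turnover moved in both directions. Of 16, 3 rose (18.8%, against 14.4% of all genes) and 2 fell (12.5%, against 12.6%) with DHT in sh_scramble, led by MYCBP2 (log2 0.85, edgeR adjusted p = 0.00016), with SKP2 (0.30) and SET (0.25) also higher and TRIM32 (-0.48) and GSK3B (-0.29) lower. The SKP2 call there was lost in 10 of 21 settings. In sh_TMEFF2 5 rose (31.2%, against 7.84% of all genes) and 1 fell (6.25%, against 5.21%). KIAA1524, the older symbol of CIP2A, which shields MYC from dephosphorylation, rose from 23 ± 4.36 to 43.7 ± 4.19 CPM (log2 0.93, edgeR adjusted p = 0.002). The mitotic kinase AURKA rose from 28.1 ± 6.55 to 51.6 ± 12.6 CPM (log2 0.87, edgeR adjusted p = 0.013), and the ubiquitin ligase subunit SKP2 from 31 ± 2.53 to 49.7 ± 4.49 (log2 0.68, edgeR adjusted p = 0.0011). MYCBP2 (0.63) and SET (0.25) rose and GSK3B (-0.32), the kinase that marks MYC for degradation, fell. KIAA1524, AURKA and SKP2 are also known for roles in cell division, and the AURKA call was lost without sh_TMEFF2 -DHT library 1 or 2 or +DHT library 3 (adjusted p of 0.053 to 0.061). With the hormone 3 of the 16 stood higher in sh_TMEFF2 than in sh_scramble (18.8%, against 6.93% of all genes), namely KIAA1524 (log2 0.45, edgeR adjusted p = 0.049), TRIM32 (0.36) and SKP2 (0.32), and the calls of KIAA1524 and SKP2 were lost in 10 and 7 of 21 settings. Without DHT none of the 16 passed between the lines by edgeR or limma-voom, 3 had an unadjusted p under 0.05, the libraries did not overlap for 6 of 16, against 18.5% of all genes, and DESeq2 called MYCBP2 higher in sh_TMEFF2. No response of the 16 differed between the lines by edgeR, DESeq2 or limma-voom, although 4 had an unadjusted p under 0.05. Under other edgeR settings the difference passed for SKP2 in 2 of 20 and for KIAA1524 in 1 of 20.

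Corepressor genes were read as 2 complexes. Of 14 SIN3 complex genes 2 rose (14.3%, against 14.4%), the histone-reading subunit ING2 (log2 0.55) and SUDS3 (0.33), with DHT in sh_scramble. In sh_TMEFF2 none passed by edgeR or limma-voom, 5 had an unadjusted p under 0.05, and DESeq2 called 3 higher. HDAC2 was higher in sh_TMEFF2 with DHT (0.21), 7.14% against 6.93%, and DESeq2 called 3 higher (HDAC1, HDAC2 and RBBP4) and SUDS3 lower. Of 13 genes of the Polycomb complex that holds MGA, RYBP (0.26) and CBX3 (0.19) rose and CBX1 fell (-0.24) with DHT in sh_scramble (15.4% higher and 7.69% lower, against 14.4% and 12.6%), and PCGF6 (0.42), WDR5 (0.30) and CBX3 (0.27) rose in sh_TMEFF2 (23.1%, against 7.84%). With DHT, CBX1 (0.40) and HDAC2 (0.21) were higher and RYBP (-0.32) lower in sh_TMEFF2 than in sh_scramble. That is 23.1% of the 13, against 16% of all genes, 7 had an unadjusted p under 0.05, and the libraries did not overlap for 9 of 13, against 32.5% of all genes. Without DHT no gene of either list passed between the lines by edgeR, DESeq2 or limma-voom, with 1 in each list at an unadjusted p under 0.05. The DHT responses of neither list differed between the lines by edgeR or limma-voom, with 0 SIN3 and 3 Polycomb genes at an unadjusted p under 0.05, and DESeq2 called RYBP.

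Of the genes that textbooks list as induced by MYC, 15 rose with DHT in sh_scramble and 17 in sh_TMEFF2. MYC mRNA did not pass the edgeR test without a replicate block in either. In sh_TMEFF2 its adjusted p was 0.046 by DESeq2 and 0.03 by edgeR with the block. Of 35 textbook targets 34 were tested, CCND2 being too low. In sh_scramble 15 rose, 0 fell and 19 did not pass (44.1% higher, against 14.4% of all genes), 33 of the 34 fitted values were positive, and the median log2 change was 0.22 against -0.01 for all genes. In sh_TMEFF2 17 rose, 0 fell and 17 did not pass (50% higher, against 7.84%), all 34 values were positive, and the median was 0.27 against -0.02. The list was chosen with earlier results known and its genes were not matched to others by level, so these shares are no independent test. Most of the changes were small. Nucleolar genes were among them, such as NOP16 (log2 0.45 and 0.42 in sh_scramble and sh_TMEFF2, edgeR adjusted p = 0.0012 and 0.0056), NOP56 (0.29 and 0.40) and NCL (0.23 and 0.31), whereas NOP58 rose in sh_TMEFF2 (0.41) and had 0.20 in sh_scramble, which did not pass. The count in sh_TMEFF2 was 9 without its +DHT library 3 and 10 without either its -DHT library 1 or its -DHT library 2.

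In sh_scramble the steepest of these rises belonged to FASN and ODC1, which are known also as androgen targets. FASN, the fatty acid synthase, rose 2.52-fold in sh_scramble (log2 1.34, edgeR adjusted p = 8.6e-06), and ODC1, the first enzyme of polyamine synthesis, 2.14-fold (1.09, adjusted p = 2.3e-06). SRM, the next enzyme of that pathway, rose by 0.54. In sh_TMEFF2 FASN changed by 0.36 and ODC1 by 0.20, which did not pass by edgeR, although DESeq2 called FASN (adjusted p = 0.021) and the calls appeared in 4 and 2 of 21 settings. For both the response was smaller than in sh_scramble by the edgeR interaction test (-0.97, adjusted p = 0.0073, and -0.89, adjusted p = 0.0014). They were the only 2 of the 34 whose response differed between the lines by edgeR (5.88% lower, against 3.29% of all genes). TERT, the catalytic subunit of telomerase, rose from 1.67 ± 0.934 to 6.16 ± 2 CPM in sh_TMEFF2 (log2 1.88 ± 0.36, edgeR adjusted p = 0.0055). In sh_scramble its log2 change was 0.99 with an adjusted p of 0.054 by edgeR, and DESeq2 and limma-voom each called it higher. These values rested on 23 to 187 counts a library. Without DHT none of the 34 differed between the lines by edgeR, DESeq2 or limma-voom (3 at an unadjusted edgeR p under 0.05). With DHT, FASN (-0.97) and ODC1 (-0.80) were among 3 that were lower in sh_TMEFF2 (8.82%, against 9.09% of all genes), and RCC1 (0.42) was higher (2.94%, against 6.93%), shares at or below those of all genes. The third lower gene was SHMT2 (-0.28).

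**Figure D4:**
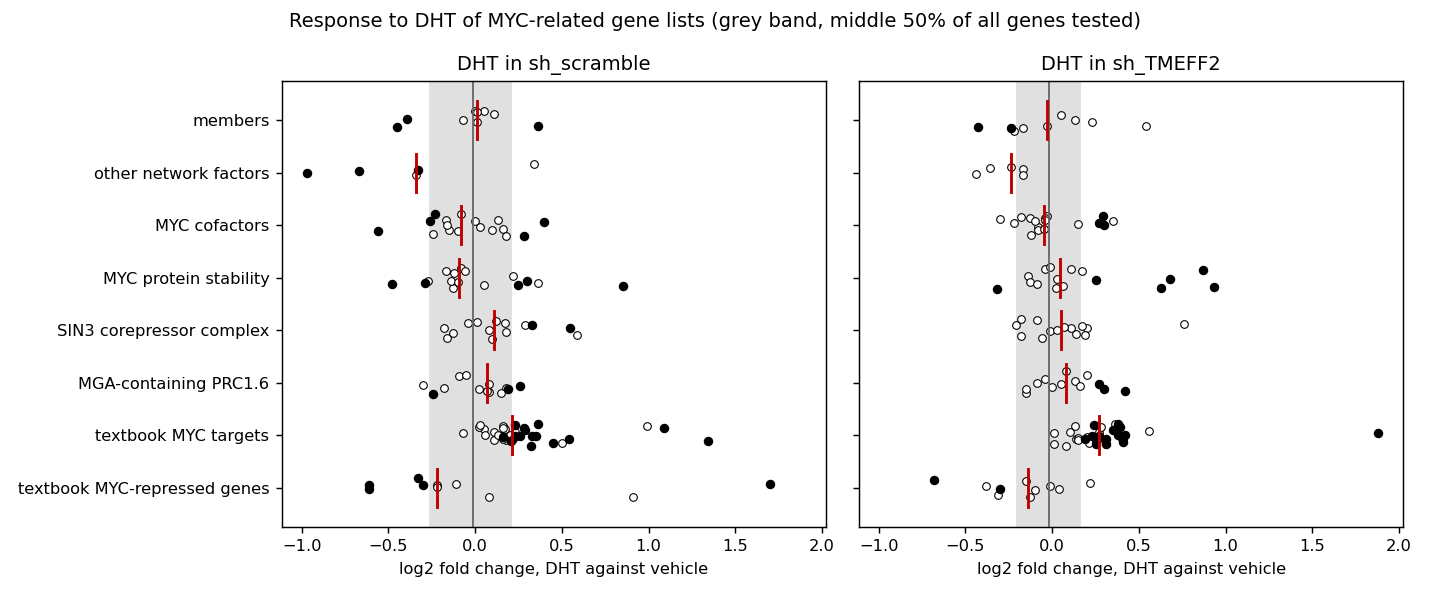
Log2 fold change with DHT (x axis) of each tested gene of 8 lists in sh_scramble (left) and sh_TMEFF2 (right), with filled points for an adjusted p of at most 0.05 by edgeR, red bars for list medians and a grey band for the middle 50% of all genes tested. The medians of the textbook MYC targets, 0.22 and 0.27, lie above those of the 9 members, 0.01 and -0.03.

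Genes listed as repressed by MYC were fewer and mixed. Of 10, 4 fell (40%, against 12.6% of all genes) and 1 rose (10%, against 14.4%) with DHT in sh_scramble. The cell cycle inhibitor CDKN1A fell by 0.61 on the log2 scale and CDKN1B by 0.30, along with COL1A1 and FTH1. NDRG1, a stress-responsive gene that androgen also induces, rose from 100 ± 43.2 to 325 ± 22 CPM (log2 1.70, edgeR adjusted p = 0.0001). In sh_TMEFF2 COL1A1 (-0.68) and FTH1 (-0.30) fell (20%, against 5.21% of all genes) and none rose (against 7.84%), and NDRG1 stood at 61.9 and 72.3 CPM. Its response differed between the lines by -1.48 (edgeR interaction, adjusted p = 0.016). With DHT, NDRG1 was 4.5-fold lower in sh_TMEFF2 than in sh_scramble (log2 -2.17, edgeR adjusted p = 3.8e-05) and FTH1 was higher (0.27, adjusted p = 0.019), each 10% of the list against 9.09% and 6.93% of all genes. DESeq2 also called CEBPA higher there, and CDKN1B for the difference of responses. Without DHT none of the 10 passed between the lines by edgeR or limma-voom, although 6 had an unadjusted p under 0.05 and the libraries did not overlap for 8 of 10, against 18.5% of all genes. DESeq2, which called 539 of all 15419 genes in that comparison, called 3 of the list, CDKN1B lower and FTH1 and ITGB1 higher in sh_TMEFF2. COL1A1 is also the leading stromal marker, and the part of other cells in its change was not tested.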

How the data were processed

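RNA-seq (75 bp paired-end) was available for 12 LNCaP libraries, 3 in each of 4 groups. Per the labels and methods, the authors trimmed reads with Trimmomatic (minimum 15 bp), estimated abundances with kallisto 0.42.3 on the GRCh38 transcriptome and deposited expected counts per gene, scaled for transcript length, in 24 columns, 2 per library. Between the 2 columns of a library 24.6 to 26.9% of genes passed the 95% point of a chi-square test, against 39 to 44.1% between libraries of a group (5% under counting error alone), so both were summed and counted as 1 replicate. Sums were rounded and tested with edgeR 4.0.16 (R 4.3.3), quasi-likelihood, TMM factors of 0.955 to 1.037, filterByExpr (minimum count 10), all 12 libraries in 1 fit, and Benjamini-Hochberg adjustment over 15419 genes at 0.05. On simulated counts for DHT in sh_TMEFF2, 93 of 100 genes changed 2-fold and 100 of 100 changed 4-fold were recovered among 15224, with 3 wrong calls. For the difference of responses 77 and 95 were recovered, with 5 wrong calls, and between the lines with DHT 93 and 99, with 12. Only 2-fold and 4-fold changes were simulated, without an effect of replicate number. Recovery of the smaller changes seen among the members was therefore not measured. p-values measure the spread between cultures, and intervals of fitted values are 95%. DESeq2 1.42.0 and limma-voom (limma 3.58.1), other filters, library-size scaling, single columns, a replicate block and leaving out each library were tried. DESeq2 called more of all genes than edgeR did. Its counts were 4460 against 4157 for DHT in sh_scramble and 2589 against 2013 in sh_TMEFF2. Between the lines they were 539 against 172 without DHT and 2930 against 2470 with DHT, and 1199 against 761 for the difference. Levels per length used GENCODE v44. Promoter windows came from RefSeq. The members and gene lists were chosen with earlier results of these data known. Genes named were the members, up to 3 per list and comparison with the largest change among those past the test, and up to 3 most correlated genes. A few results that these rules would name are not reported here. BPTF, KAT5, SET, GSK3B, NOP56, NCL, SHMT2, CDKN1B, CEBPA, ITGB1, HDAC1, RBBP4, MYCL, ARRDC4 and PTPRC, and some values of other genes, were added after their values were seen.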

Additional observations from a re-analysis of the deposited data

Results flagged for a closer look

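The response to DHT differed between the lines for 7 of the listed genes reported here by the edgeR interaction test at an adjusted p of 0.05, none of them a member of the network. Values are sh_TMEFF2 minus sh_scramble on the log2 scale. Among textbook MYC targets the difference was -0.97 for FASN and -0.89 for ODC1, and among genes listed as repressed by MYC it was -1.48 for NDRG1. Among luminal markers it was -2.5 for FKBP5, a chaperone induced by androgen, -1.49 for KRT8 and -1.07 for KRT18, the luminal keratins. It was 0.5 for FOLH1, the prostate-specific membrane antigen. The FASN, ODC1 and NDRG1 differences passed in all 20 alternative settings run for them, with ranges of -1.11 to -0.86, -0.99 to -0.76 and -1.88 to -1.29.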

How the results depend on the processing

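The calls for MXI1, MXD4 and MLX with DHT in sh_scramble passed in 21 of 21 alternative settings (log2 -0.52 to -0.42, -0.45 to -0.34 and 0.29 to 0.41), and no member's response differed between the lines in any. Over 936 member values under alternatives, most of them not called in the main fit either, 899 kept their side of the threshold, 29 lost a call and 8 gained one. No called value changed its direction. The lost calls were those of MXD4 (2 of 21 settings) and MNT (16 of 21) with DHT in sh_TMEFF2. Between the lines with DHT they were those of MNT (6 of 21) and MLX (5 of 21). With DHT in sh_TMEFF2, 1 member rather than 2 was called without a filter on low counts, by library size only, by limma-voom, with 6 libraries or from the second column, 5 with the replicate block (MYC, at an adjusted p of 0.03, and MXD3 higher, MXI1, MXD4 and MNT lower), and 0 to 3 without 1 library (0 without sh_TMEFF2 +DHT library 3). Between the lines with DHT, 1 was called by library size only, 0 from the first column and 0 to 2 without 1 library. Without DHT, 1 was called by DESeq2 and 0 in every fit without 1 library.

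Among all genes, DHT in sh_TMEFF2 gave 1325 and 1287 calls from the first and second columns against 2013, and 877 to 2013 without 1 library (877 without sh_TMEFF2 +DHT library 3). Between the lines without DHT 172 became 539 by DESeq2, 298 without a filter, 73 with 6 libraries, 362 with the replicate block, 76 from the first and 76 from the second column, and 45 to 197 without 1 library (45 without sh_scramble -DHT library 1). The difference of responses went from 761 to 1199 by DESeq2, 494 from the second column and 465 to 765 without 1 library (465 without sh_scramble -DHT library 2). Without 1 library the calls with DHT in sh_scramble were 3113 to 4172 and between the lines with DHT 1628 to 2534. Scaling by library size only changed the higher and lower calls from 2217 and 1940 to 1673 and 2698 with DHT in sh_scramble, from 1068 and 1402 to 1616 and 1101 between the lines with DHT, and from 254 and 507 to 370 and 398 for the difference.

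The textbook MYC targets were recounted under these settings after the data were seen. With DHT in sh_scramble 10 were higher by library size only, and 11 to 17 without 1 library. In sh_TMEFF2 9 to 20 were higher without 1 library. Same-numbered libraries correlated in their deviations at 0 to 0.17 (mean 0.07), with 3 of 18 pairs over 0.1. Libraries with other numbers gave -0.14 to 0.07 (mean -0.04), and 12 of 12 libraries correlated best with their own number. Libraries of a number thus shared a small part of their deviations, which the main fit, made without pairs, did not take up. With the number as a block, calls among all genes rose from 4157 to 4816 for DHT in sh_scramble and from 2013 to 2647 in sh_TMEFF2.

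Per length of the median transcript, levels in CPM per kb were 103.0 for MYC, 63.8 for MAX, 30.5 for MXI1, 18.1 for MNT, 14.9 for MXD3 and 9.84 for MGA. Per length of the shortest they were 610.0 for MYC, 173.0 for MAX, 148.0 for MLX, 103.0 for MXI1, 82.5 for MNT, 60.2 for MGA, 32.7 for MXD3 and 17.9 for MXD1. The members with the fewest counts were MXD1 and MXD3, at 244 to 404 and 194 to 476 a library. The causes of these changes were not tested.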
